A study of Schizosaccharomyces pombe with 8 samples.

Results

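The response of fission yeast lacking DNA topoisomerase I to hydrogen peroxide was taken from the 4 libraries of the Δtop1 strain, out of 8 in the series, over all 5165 genes of the deposited table. Schizosaccharomyces pombe cells grown in rich YE5S medium were left untreated or treated for 30 min with 1 mM H2O2, and poly(A) RNA was sequenced from 2 biological replicates of each condition. The Δtop1 strain RF14 is h- top1::kanMX6, a single deletion strain in which a kanamycin resistance cassette replaces top1. The other 4 libraries came from the wild-type strain 972 (WT, h-), untreated or treated in the same way, and are used here for the shared estimate of the spread and for comparing the 2 responses. All Δtop1 libraries come from this 1 strain, so an effect of the strain and one of the deletion cannot be told apart.

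Fission yeast senses H2O2 through a phosphorelay that activates the MAP kinase Sty1, which phosphorylates the transcription factor Atf1, and through oxidation of the transcription factor Pap1, which then accumulates in the nucleus. The Sty1 programme is shared with other stresses and is known for raising antioxidant and carbohydrate genes while genes of ribosome production fall. Top1 relaxes the DNA supercoils that build up around transcribing RNA polymerases and is not essential in this yeast.

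Levels are normalized counts, in which the deposited table scales each library's reads by a size factor. Responses are log2 fold changes of H2O2 over untreated cells on the log2(normalized count + 1) scale, which understates the change of low genes, with limma's standard error (SE) and its p-value adjusted by Benjamini-Hochberg over the 5019 genes whose mean over the 8 libraries reached 10. A gene was called up or down at an adjusted p under 0.1 and a change of at least 2-fold, and n is 2 libraries per group throughout. The other 146 genes were too low to be tested.

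The 8 libraries held between 16090015 and 19899720 reads on genes, and log2 levels of the replicates correlated at 0.990 in untreated and 0.991 in treated Δtop1 cells. The top1 gene itself was at 309 and 286 normalized counts in untreated and at 244 and 244 in treated Δtop1 cells, against 1967, 2150, 2013 and 2513 in WT, so that untreated WT stood 6.93-fold above untreated Δtop1. All 4 Δtop1 libraries therefore lay below all 4 WT libraries, with some reads left on the gene. The study's list of strains gives the mating type of both strains as h-. The M mating type gene mat1-Mc was at 730 and 601 normalized counts in untreated and 517 and 587 in treated Δtop1 cells, but the P-cell genes map3, at 331 and 293 untreated, and map2, at 136 and 99.4, had reads too.

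In Δtop1 cells 630 of the 5019 genes tested were called up, 12.6%, and 540 were called down, 10.8%. Without the fold limit 1802 of the 5019 genes were higher at an adjusted p under 0.1 and 1753 were lower, so passing this threshold alone was common. Among the called genes the changes upwards reached further. Of the genes called up, 229 rose at least 4-fold, 101 at least 8-fold, 55 at least 16-fold and 9 at least 64-fold, whereas 93 genes fell at least 4-fold, 10 at least 8-fold and 3 at least 16-fold. The median log2 fold change was 1.68 among genes called up, -1.41 among genes called down and -0.002 over all genes tested. The genes called up took 7.27% and 7.40% of the reads in the untreated libraries and 30.9% and 29.3% in the treated ones, and the genes called down went from 13.0% and 12.7% to 4.11% and 3.97%. Fewer cells expressing a gene and less RNA per cell cannot be told apart in such bulk samples.

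The split between up and down depended on how the libraries were scaled. With the deposited scaling 53.8% of the calls were up. When each library was instead scaled to the same total, 501 genes were up and 761 down, or 39.7% up, and scaling to the same upper quartile gave 488 up and 797 down, or 38.0% up. These scalings moved the median log2 fold change of all genes to -0.20 and -0.23, and quantile normalization, with 568 up and 603 down or 48.5% up, moved it to -0.08. Changes below are relative to the deposited scaling.

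**Figure D1:**
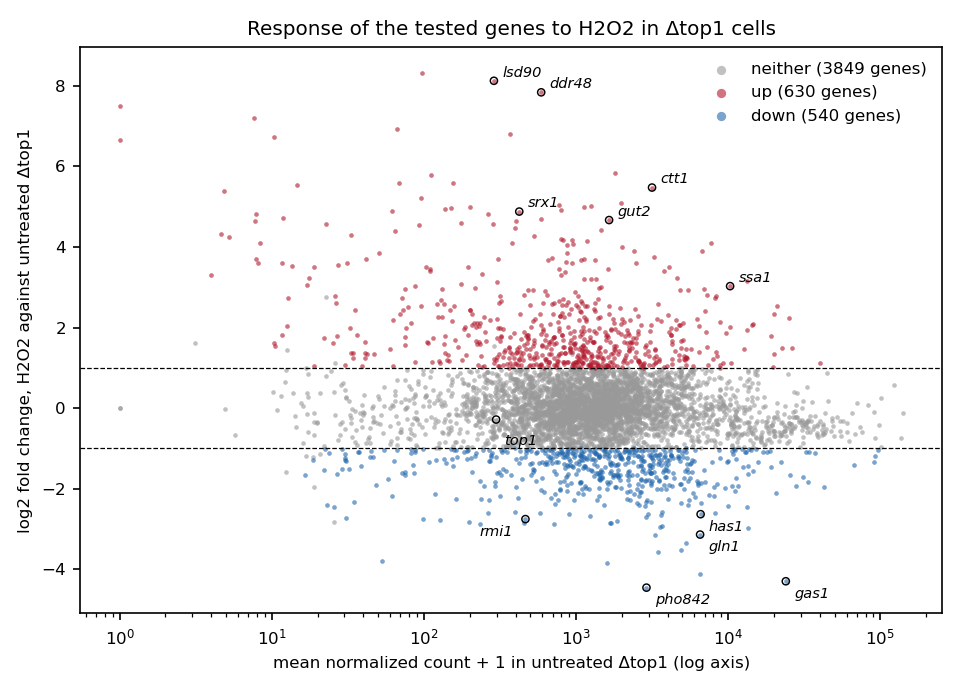
Log2 fold change with H2O2 in Δtop1 cells (vertical axis) against the mean normalized count plus 1 in untreated Δtop1 cells (horizontal log axis), 1 point per gene tested, with 630 genes called up in red, 540 called down in blue and 3849 not called in grey. Dashed lines mark a 2-fold change, and the red points extend to a log2 fold change of 8.33 and the blue ones to -4.46.

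Several metabolic enzymes were among the 8 largest rises. SPBC24C6.09c, which encodes a protein of the phosphoketolase family, was at 99.98 and 91.3 normalized counts untreated and 40065 and 24009 with H2O2, a log2 fold change of 8.33 ± 0.26 (SE, adjusted p = 7.53e-08). Both treated libraries lay far above both untreated ones, although they differed from each other. The lsd90 gene rose from 296 and 279 to 85718 and 75883 normalized counts, by 8.13 ± 0.11 on the log2 scale (adjusted p = 2.53e-09). For ddr48, named in budding yeast for its response to DNA damage, the libraries went from 691 and 487 to 138633 and 128079, which left its transcript among the most abundant of treated cells (log2 7.84 ± 0.20, adjusted p = 3.69e-08). Transcripts of ssd2, a succinate-semialdehyde dehydrogenase, went from 446 and 286 to 46053 and 34380 (log2 6.80 ± 0.22, adjusted p = 8.47e-08). SPAC4H3.03c, annotated as a glucan 1,4-alpha-glucosidase, went from 83.8 and 47.3 to 8051 and 7516 (log2 6.93 ± 0.22).

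The remaining genes at the top were nearly silent before treatment. SPAC186.02c, annotated as a hydroxyacid dehydrogenase, had no read in either untreated Δtop1 library and 234 and 137 normalized counts in the treated ones, which is at least 69.9-fold higher when set against a floor of 3 reads per library. SPAC3G6.07, an uncharacterized protein, went from 7.62 and 5.70 to 1239 and 1024 normalized counts (log2 7.21 ± 0.28, adjusted p = 2.39e-07), and SPAPB1A11.03, a cytochrome-type L-lactate dehydrogenase, went from 5.71 and 13.0 to 1401 and 769.9 (log2 6.74 ± 0.38, adjusted p = 1.44e-06). Of all 630 genes called up 195 had no gene name, 31.0%, against 16.4% of all genes tested and 83 of the 540 genes called down. A gene without a name can still have an annotated product, as with SPAC186.02c and SPAPB1A11.03.

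Transporters and cell wall enzymes were among the 8 largest falls. The phosphate transporter gene pho842 was at 2602 and 3200 normalized counts untreated and 171 and 99.02 with H2O2, a log2 fold change of -4.46 ± 0.30 (adjusted p = 3.98e-06). The cell wall gene gas1, whose product elongates 1,3-beta-glucan, went from 23940 and 23882 to 1530 and 960.2 normalized counts (log2 -4.30 ± 0.19, adjusted p = 4.55e-07). In both genes the treated libraries lay below the untreated ones by more than 10-fold. SPAC8E11.10, annotated as a sorbose reductase, went from 5999 and 7057 to 431 and 326 (log2 -4.11 ± 0.18). The haem synthesis gene hem3 fell from 3525 and 3342 to 356 and 231 and the chitinase gene cts2 from 4966 and 4762 to 487 and 366 (log2 -3.58 ± 0.22 and -3.52 ± 0.14). The transporter gene SPBC887.17 fell by 3.34 on the log2 scale, and psu2, annotated as a beta-glucosidase, had 44 and 76 reads untreated and 2 and 3 reads with H2O2, a normalized ratio of 19.1 for untreated over treated (95% exact interval 7.95 to 59.8, counting error only).

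Genes were then grouped into 35 lists by function. Their counts are to be read beside the 12.6% up and 10.8% down of all genes tested. The lists held 137 of the genes called up and 164 of those called down, so that 493 and 376 called genes were in none. Lists with the highest median responses were those of detoxifying enzymes, trehalose and glycerol metabolism, peroxide scavenging, and autophagy, and those with the lowest were ribosome biogenesis, septum and cell separation, and RNA polymerases I and III.

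**Figure D2:**
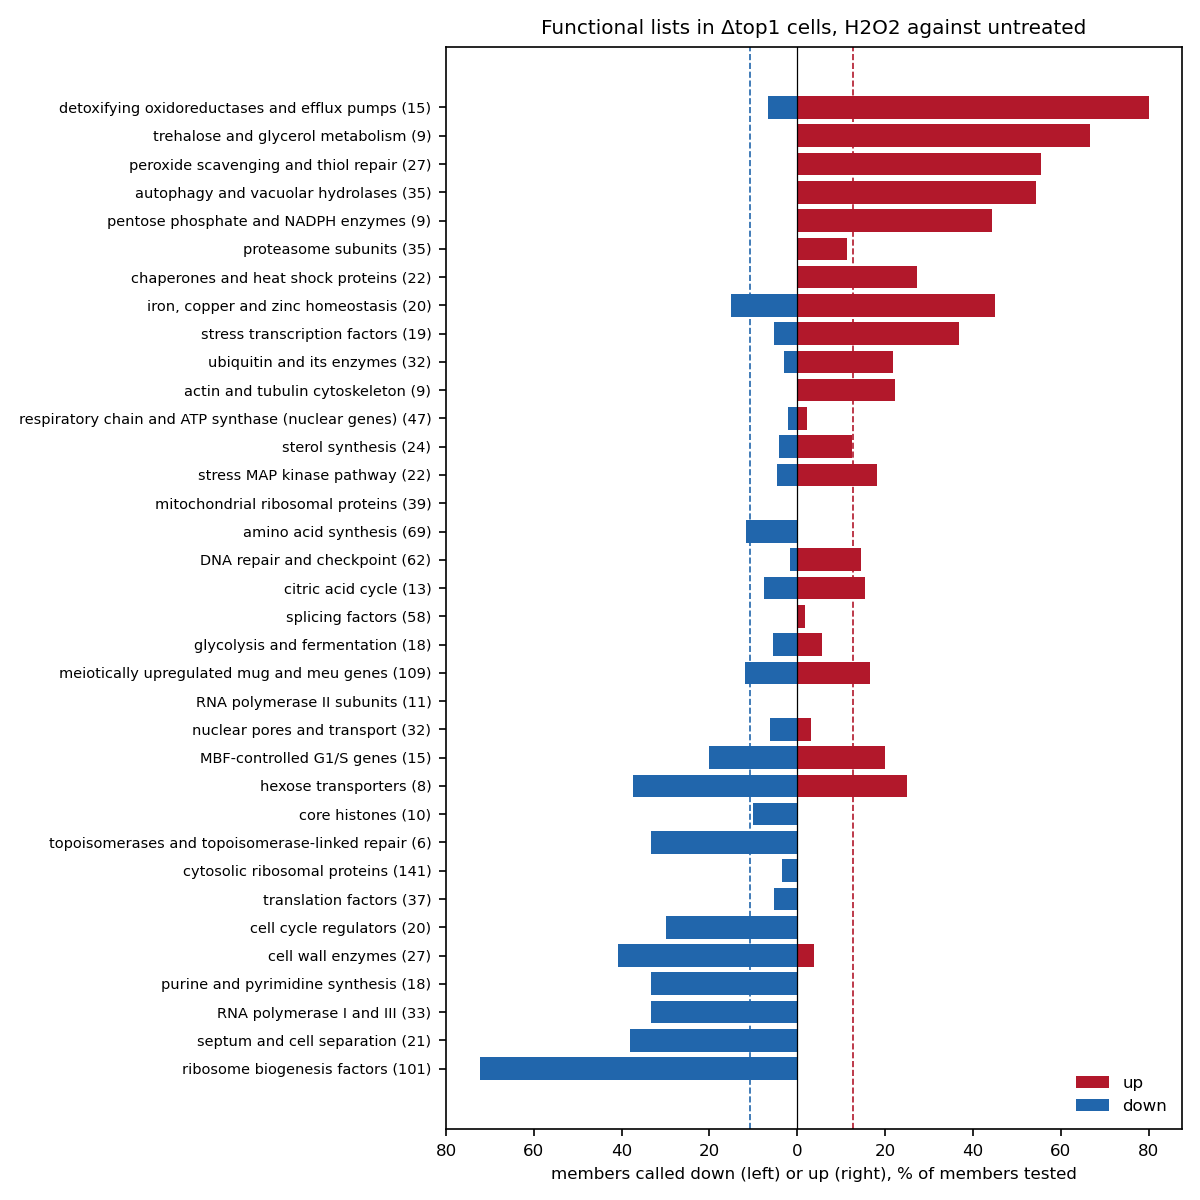
Percent of the tested members called up (red, to the right) and called down (blue, to the left) with H2O2 in Δtop1 cells for each of 35 gene lists, ordered by their median log2 fold change. The dashed lines give the percent over all genes tested, 12.6 up and 10.8 down, and the bars run from 12 of 15 detoxification genes called up at the top to 73 of 101 ribosome biogenesis genes called down at the bottom.

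Of the 27 genes of peroxide scavenging and thiol repair, 15 rose (55.6%, against 12.6% of all genes), none fell, and the median log2 fold change was 1.22. The catalase gene ctt1, whose enzyme breaks H2O2 down, was at 3243 and 3069 normalized counts untreated and 134273 and 147064 with H2O2, a log2 fold change of 5.48 ± 0.14 (adjusted p = 3.69e-08). The sulfiredoxin gene srx1, whose product restores overoxidized peroxiredoxin, went from 387 and 458 to 12688 and 12160 normalized counts (log2 4.88 ± 0.14, adjusted p = 5.50e-08). For both genes the replicates of a condition lay close together and the conditions far apart. The glutathione S-transferase gene gst3 went from 1199 and 1039 to 15089 and 14045 (log2 3.70 ± 0.11, adjusted p = 5.44e-08).

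The thioredoxin branch started from high levels. The thioredoxin reductase gene trr1 went from 6836 and 7045 to 49384 and 57857 normalized counts (log2 2.95 ± 0.20, adjusted p = 4.44e-06), and tpx1, the peroxiredoxin that reduces H2O2 and relays oxidation to Pap1, went from 18256 and 21968 to 91666 and 112452 (log2 2.34 ± 0.28, adjusted p = 1.10e-04). The 27 genes together took 0.645% and 0.673% of the reads in the untreated and 3.13% and 3.20% in the treated Δtop1 libraries. Log2 fold changes in the list ranged from -0.39 to 5.48. At an adjusted p under 0.1, 23 of the 27 genes were higher, against 1802 of all 5019 genes.

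Among 15 detoxifying oxidoreductases and efflux pumps 12 rose and 1 fell, with a median log2 fold change of 2.22. The genes hsp3101 and hsp3102, which encode glyoxylase III enzymes that remove reactive aldehydes, went from 272 and 253 to 8129 and 6859 normalized counts (log2 4.82 ± 0.11, adjusted p = 2.77e-08) and from 40.0 and 40.7 to 663 and 443 (log2 3.71 ± 0.26, adjusted p = 4.42e-06), respectively. The spermine family transporter gene caf5, named for caffeine resistance, went from 822 and 1059 to 9744 and 13013 (log2 3.59 ± 0.34, adjusted p = 3.18e-05). The exception was the alcohol dehydrogenase gene adh4, at 2599 and 4416 normalized counts untreated and 1272 and 1399 with H2O2 (log2 -1.34 ± 0.36, adjusted p = 0.00983), and its call was lost at -0.96 without the second untreated library.

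Of 22 signalling genes of the stress MAP kinase pathway 4 rose, 18.2% against 12.6% of all genes, and 1 fell. The median log2 fold change was 0.25. Among the rises were targets and brakes of the kinase. The gene of the MAP kinase-activated kinase Srk1 went from 1162 and 1201 to 20662 and 21234 normalized counts (log2 4.15 ± 0.08, adjusted p = 1.24e-08), that of the tyrosine phosphatase Pyp2, which inactivates Sty1, from 881 and 839 to 10893 and 10264 (log2 3.62 ± 0.09), and that of the type 2C phosphatase Ptc1 from 1474 and 1381 to 7113 and 6608 (log2 2.26 ± 0.09). The kinase gene sty1 was at 4850 and 4812 normalized counts untreated and 7966 and 9079 with H2O2, higher by 0.82 ± 0.09 on the log2 scale (adjusted p = 7.43e-05) but under 2-fold. The gene of Wis1, the kinase that activates Sty1, fell from 2878 and 2441 to 1148 and 1107 (log2 -1.23 ± 0.09, adjusted p = 7.58e-06), and cmk2, which encodes a further kinase downstream of Sty1, had a log2 fold change of 0.25 ± 0.12 (adjusted p = 0.103).

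Of 19 stress transcription factor genes 7 rose, 36.8% against 12.6% of all genes, and 1 fell. The bZIP factor genes atf1 and pcr1, whose products bind DNA as a heterodimer, went from 1550 and 1935 to 7938 and 8071 normalized counts (log2 2.21 ± 0.14, adjusted p = 2.59e-06) and from 1397 and 1254 to 7354 and 6707 (log2 2.41 ± 0.10, adjusted p = 3.53e-07). The pap1 gene was at 3060 and 3439 normalized counts untreated and 4536 and 5222 with H2O2, with a log2 fold change of 0.58 ± 0.15 (adjusted p = 0.00758), so it was higher but was not called. Iron regulators moved in opposite directions, the repressor gene php4 up (log2 1.59 ± 0.15) and the iron-sensing repressor gene fep1 down, from 1482 and 1469 to 463 and 422 (log2 -1.74 ± 0.13).

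The DNA ahead of these genes was read from RefSeq for assembly ASM294v3. Atf1 with Pcr1 binds the cAMP response element (CRE), whose core TGACGT was searched on both strands in the window from 250 bases before to 50 bases after the start of each gene model, as was the palindrome TTACGTAA bound by Pap1. The 200 bases before the start are printed 5′ to 3′ along the coding strand for a kinase, a factor and enzyme genes described here, with CRE cores and the palindrome in capitals. The start is that of the gene model, which need not be where transcription begins. The windows are chrIII:58834-59033, minus strand, for ctt1, chrIII:1301737-1301936, plus strand, for srk1, chrII:1546017-1546216, plus strand, for atf1, and chrII:4035366-4035565, plus strand, for gpd1.
ctt1: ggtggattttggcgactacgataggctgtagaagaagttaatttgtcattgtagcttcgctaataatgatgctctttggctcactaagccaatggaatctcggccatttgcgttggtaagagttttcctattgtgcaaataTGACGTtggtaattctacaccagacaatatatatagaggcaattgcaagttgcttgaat
srk1: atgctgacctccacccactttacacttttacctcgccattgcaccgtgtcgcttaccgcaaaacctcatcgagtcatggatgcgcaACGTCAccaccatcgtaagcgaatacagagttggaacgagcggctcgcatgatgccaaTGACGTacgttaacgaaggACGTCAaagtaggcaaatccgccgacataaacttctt
atf1: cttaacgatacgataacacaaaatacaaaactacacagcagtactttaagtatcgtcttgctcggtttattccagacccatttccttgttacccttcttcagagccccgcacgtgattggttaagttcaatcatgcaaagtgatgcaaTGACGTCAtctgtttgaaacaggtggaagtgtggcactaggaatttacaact
gpd1: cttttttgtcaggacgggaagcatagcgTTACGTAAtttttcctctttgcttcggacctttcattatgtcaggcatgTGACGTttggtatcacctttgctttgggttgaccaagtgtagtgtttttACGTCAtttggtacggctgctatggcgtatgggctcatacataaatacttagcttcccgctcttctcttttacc
The ctt1 window held 1 CRE core, which began 59 bases before the start. In srk1 there were 3, at 56 bases on the coding strand and at 114 and 37 bases on the other strand. In atf1 cores on the 2 strands overlapped at 52 and 50 bases, and the window of gpd1, a glycerol synthesis gene, held 2 cores at 123 and 74 bases and a Pap1 palindrome at 172 bases.

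Among all 5128 windows read, 5.97% held a CRE core, against 18.9% of the genes called up, 32.7% of those up at least 8-fold and 2.98% of those called down. Read the other way, 119 of the 299 tested genes with the core were called up, 39.8%, with a median log2 fold change of 0.63, against 10.8% of the 4704 genes without it and a median of -0.03. The palindrome TTACGTAA was in 0.468% of all windows and before 24 tested genes, of which 14 were up and none down, with a median log2 fold change of 1.52. In the scavenging list the core was in the windows of ctt1, gst3, grx1 and pmp20, all 4 of which rose (median 3.01), and 11 of the other 23 members rose as well (median 0.98). In the detoxifying list the only member with a core, adh4, fell, and 12 of the 14 without it rose. Of 3 stress MAP kinase pathway genes with a core 2 rose, as did 2 of the 19 without it. Among stress transcription factor genes atf1 alone had a core and rose, as did 6 of the 18 without it. A match of these letters is a description of the window and not evidence of binding.

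**Figure D3:**
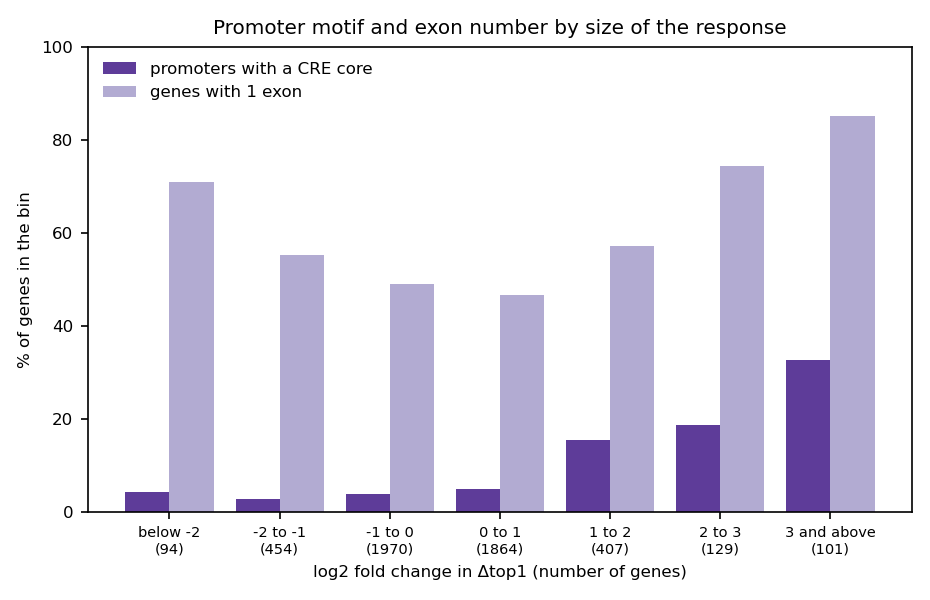
Percent of genes with a CRE core in the promoter window and percent of genes with a single exon (vertical axis), by bins of the log2 fold change with H2O2 in Δtop1 cells (horizontal axis), with the number of genes under each bin. The share with a CRE core went from 4.84% of genes between 0 and 1 to 32.7% of genes at 3 and above, and the share with a single exon from 46.7% to 85.1% over the same bins, with 71.0% in the lowest bin.

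Carbohydrate genes rose in specific branches. In trehalose and glycerol metabolism 6 of 9 genes rose, none fell, and the median log2 fold change was 1.67. The trehalose synthase gene tps1 went from 8194 and 8104 to 52111 and 56384 normalized counts (log2 2.73 ± 0.11, adjusted p = 2.39e-07), and ntp1, which encodes the enzyme that breaks trehalose down, from 2298 and 2625 to 28556 and 31164 (log2 3.60 ± 0.13, adjusted p = 1.41e-07). Genes of trehalose synthesis and breakdown thus rose together. The mitochondrial glycerol-3-phosphate dehydrogenase gene gut2 went from 1658 and 1637 to 40074 and 43893 (log2 4.67 ± 0.11), and gpd1, whose enzyme makes glycerol-3-phosphate, from 28231 and 21605 to 117038 and 116608 (log2 2.24 ± 0.18). The 3 genes of this list with a CRE core, gpd1, ntp1 and gut2, all rose, as did 3 of the other 6.

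Of 9 genes for NADPH supply through the pentose phosphate pathway, 4 rose and none fell. The gene of its first enzyme, zwf1, went from 6890 and 9712 to 52806 and 60194 normalized counts (log2 2.78 ± 0.24, adjusted p = 1.68e-05), gnd1, of the second NADPH-forming dehydrogenase, from 23670 and 28815 to 66411 and 80727 (log2 1.49 ± 0.23), and the gluconokinase gene idn1 had a log2 fold change of 1.46 ± 0.15. Main-line glycolysis held few calls, with 1 of 18 genes up, 1 down and a median of -0.05. The abundant enolase gene eno101 was at 51240 and 57300 normalized counts untreated and 37157 and 50721 with H2O2 (log2 -0.32 ± 0.22, adjusted p = 0.234), while its paralogue eno102 went from 166 and 109 to 5411 and 3223 (log2 4.95 ± 0.36, adjusted p = 6.13e-06). The glyceraldehyde-3-phosphate dehydrogenase gene tdh1 had a log2 fold change of 0.08 ± 0.21 (adjusted p = 0.734), and the pyruvate decarboxylase gene pdc101 fell from 66448 and 66930 to 23486 and 27110 (log2 -1.40 ± 0.20). The gluconeogenic gene fbp1 went from 75.2 and 77.4 to 158 and 139, a log2 fold change of 0.95 ± 0.17 (adjusted p = 0.00113) that was not called.

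Of 8 hexose transporter genes 2 were up, 25% against 12.6% of all genes, and 3 down, 37.5% against 10.8%. The high-affinity transporter gene ght5 was at 1841 and 4071 normalized counts untreated and 334 and 575 with H2O2 (log2 -2.64 ± 0.51, adjusted p = 0.00194), and its untreated replicates differed by more than 2-fold. The gene ght2 rose from 4193 and 4172 to 18328 and 15122 (log2 1.99 ± 0.12), ght1 fell from 64.7 and 83.1 to 18.7 and 26.7 (log2 -1.67 ± 0.34), and ght6 went from 10.5 and 20.4 to 2.19 and 6.68 (log2 -1.66 ± 0.65, adjusted p = 0.0498). The call of ght6 rested on few reads and was lost without the first treated Δtop1 library, where its adjusted p was 0.22.

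Genes of protein quality control were described in 4 lists. Of 22 chaperone and heat shock genes 6 rose, 27.3% against 12.6% of all genes, and none fell. The median log2 fold change was 0.61. The gene of the small heat shock protein Hsp9 went from 14782 and 11722 to 112486 and 121869 normalized counts (log2 3.15 ± 0.18, adjusted p = 1.69e-06), that of the disaggregase Hsp104 from 5986 and 8059 to 29822 and 46322 (log2 2.42 ± 0.26, adjusted p = 6.16e-05), that of the Hsp70 chaperone Ssa1 from 8915 and 11664 to 65367 and 105890 (log2 3.03 ± 0.30, adjusted p = 3.67e-05), and that of Hsp16 from 5133 and 4355 to 17938 and 21483 (log2 2.05 ± 0.24, adjusted p = 1.11e-04). Treated replicates of hsp104 and ssa1 differed more than untreated ones. The list took 3.21% and 3.39% of the reads in untreated and 4.15% and 5.09% in treated Δtop1 cells.

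Proteasome genes were higher throughout, and by little. All 35 subunit genes had positive log2 fold changes at the deposited scaling, between 0.03 and 1.31 with a median of 0.71. Of these, 34 were higher at an adjusted p under 0.1, against 1802 of all 5019 genes. In 4 the change passed 2-fold, near the share of all genes, and in 1 after quantile normalization. The largest were the core subunit genes pre3, from 2931 and 3143 to 6901 and 8156 normalized counts (log2 1.31 ± 0.11), and pre9 (log2 1.29 ± 0.10), and the regulatory subunit gene rpt6 (log2 1.23 ± 0.14). In the ubiquitin list 7 of 32 rose, 21.9% against 12.6% of all genes, and 1 fell. The polyubiquitin gene ubi4 went from 13908 and 15408 to 63067 and 60417 (log2 2.08 ± 0.17, adjusted p = 1.44e-05), the ubiquitin hydrolase gene ubp15 from 4444 and 4614 to 17263 and 17902 (log2 1.96 ± 0.10) and the conjugating enzyme gene ubc6 from 1091 and 1093 to 3844 and 3914 (log2 1.83 ± 0.09), whereas ubp16 fell from 1079 and 1086 to 459.8 and 484 (log2 -1.20 ± 0.09).

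Autophagy and vacuolar hydrolase genes had a higher share of calls, 19 of 35 up and none down, with a median log2 fold change of 1.12. The vacuolar protease gene isp6 went from 2336 and 2178 to 11332 and 9456 normalized counts (log2 2.20 ± 0.11, adjusted p = 7.43e-07), atg101, a subunit of the kinase complex that starts autophagy, from 202 and 197 to 1082 and 1070 (log2 2.43 ± 0.10, adjusted p = 2.76e-07), and atg2402 from 182 and 187 to 716 and 783 (log2 2.01 ± 0.11). Replicates lay close together in each. At an adjusted p under 0.1, 32 of the 35 genes were higher, against 1802 of all 5019 genes.

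Of 62 DNA repair and checkpoint genes 9 were up, 14.5%, near the 12.6% of all genes. Only 1 was down, 1.61% against 10.8% of all genes, but 5 were down with the same upper quartile. The list had a median of 0.07, which became -0.13 with the same total and -0.16 with the same upper quartile. Its largest rise was mag2, annotated as a DNA-3-methyladenine glycosylase, at 19.0 and 8.15 normalized counts untreated and 612 and 645 with H2O2 (log2 5.54 ± 0.41, adjusted p = 6.98e-06). The gap repair polymerase gene pol4 went from 30.5 and 37.5 to 232 and 150.2 (log2 2.43 ± 0.43, adjusted p = 0.00112), and the endonuclease gene uve1 from 1202 and 1249 to 4052 and 3903 (log2 1.70 ± 0.08, adjusted p = 6.85e-07). The fall was in eme1, a subunit of the Holliday junction resolvase, from 398 and 351 to 127 and 110.2 (log2 -1.65 ± 0.16, adjusted p = 2.97e-05).

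The genes of topoisomerases and the factors linked to them had negative median log2 fold changes in Δtop1 and in WT, -0.41 and -0.73. In WT the top1 gene itself was not lower (log2 0.13, adjusted p = 0.368). In Δtop1 all 6 had negative log2 fold changes at an adjusted p under 0.1, from -2.76 to -0.28, and 2 passed 2-fold. Of all 5019 genes 1753 were lower at that adjusted p. The gene rmi1, whose product works with Top3 and a RecQ helicase to undo joined DNA strands, went from 479.9 and 447 to 73.5 and 62.3 normalized counts (log2 -2.76 ± 0.15, adjusted p = 1.44e-06). The gene of topoisomerase III itself, top3, went from 699 and 669.9 to 354 and 306 (log2 -1.05 ± 0.12, adjusted p = 1.11e-04), a call that was lost without the second treated library, at -0.95, and under quantile normalization. The reads left on top1 were 1 of the 6 values.

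Genes for iron, copper and zinc moved in both directions, 9 of 20 up, 45% against 12.6% of all genes, and 3 down, 15% against 10.8%. The metallothionein gene zym1 went from 456 and 353 to 11368 and 8948 normalized counts (log2 4.65 ± 0.16, adjusted p = 1.08e-07), the siderophore synthesis gene sib2 from 1102 and 1163 to 10421 and 10381 (log2 3.20 ± 0.08, adjusted p = 3.06e-08), and the haem uptake gene shu1 from 4.76 and 17.1 to 282 and 259 (log2 4.73 ± 0.66, adjusted p = 2.94e-04). The vacuolar iron importer gene pcl1 fell from 3233 and 3393 to 397 and 350.5 (log2 -3.15 ± 0.21, adjusted p = 4.19e-06). Uptake and siderophore genes were thus among the risers and a gene of iron storage among the fallers.

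Ribosome production held the highest share of falls among the 35 lists. Of 101 ribosome biogenesis genes 73 fell (72.3%, against 10.8% of all genes), none rose, and the median log2 fold change was -1.42. The RNA helicase gene has1 went from 6707 and 6463 to 1078 and 1040 normalized counts (log2 -2.64 ± 0.13, adjusted p = 8.92e-07), nop52 from 1521 and 1544 to 295 and 284 (log2 -2.40 ± 0.13), and nob1, an endonuclease that matures the small subunit RNA, from 2935 and 2850 to 543 and 606 (log2 -2.33 ± 0.13). The nucleolin gene gar2 was at 21623 and 22828 normalized counts untreated and 7347 and 10657 with H2O2 (log2 -1.33 ± 0.24, adjusted p = 0.00127). The fibrillarin gene fib1 had a log2 fold change of -0.96 ± 0.14, just short of the call, and passed it at -1.13 without the second treated library. The list took 2.39% and 2.28% of the reads in untreated and 0.875% and 0.893% in treated Δtop1 cells.

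Among the RNA polymerases that make ribosomal and transfer RNA, 11 of 33 genes of polymerases I and III were down, none was up, and the median was -0.84. Under other scalings 15 to 20 were down. The polymerase I subunit genes rpa34 and rpa12 had log2 fold changes of -1.84 ± 0.11 and -1.69 ± 0.12, and rpc19, shared by both enzymes, went from 1491 and 1473 to 425 and 473 normalized counts (log2 -1.72 ± 0.10, adjusted p = 1.69e-06). The gene of the largest polymerase I subunit, nuc1, went from 6208 and 6454 to 3378 and 3812 (log2 -0.82 ± 0.16) and was called under the 3 other scalings, at -1.02 to -1.18, but not at the deposited one. None of the 11 genes for subunits of RNA polymerase II was called, and their median was -0.07, within a range from -0.80 to 0.22.

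Ribosomal protein genes formed a separate pattern of small falls. Of 141 genes 5 were called down and none up, but at the deposited scaling 137 had negative log2 fold changes, with a median of -0.47. Of these, 110 were lower at an adjusted p under 0.1, against 1753 of all 5019 genes. The share of all reads on the 141 genes went from 20.1% and 19.8% in untreated to 11.8% and 13.6% in treated Δtop1 cells. The largest fall was in rpl3402, from 3848 and 3789 to 1428 and 1521 normalized counts (log2 -1.37 ± 0.11, adjusted p = 1.40e-05), followed by rps1401, from 4056 and 3651 to 1629 and 1743 (log2 -1.19 ± 0.17). For rps1102 the libraries went from 10844 and 10389 to 4489 and 5698 (log2 -1.07 ± 0.12, adjusted p = 9.27e-05), and this call was lost at -0.90 without the first treated library. The number of members down ranged from 3 to 11 as 1 library was left out and reached 16 under other scalings. Many of these genes come in near-identical pairs, between which short reads may be divided unevenly.

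The HomolD box CAGTCACA, known in this yeast from ribosomal protein promoters, was in the windows of 62.4% of these genes on either strand, against 2.67% of all windows, and is shown in capitals for rps1102 (chrI:4674388-4674587, plus strand), where it began 57 bases before the start.
rps1102: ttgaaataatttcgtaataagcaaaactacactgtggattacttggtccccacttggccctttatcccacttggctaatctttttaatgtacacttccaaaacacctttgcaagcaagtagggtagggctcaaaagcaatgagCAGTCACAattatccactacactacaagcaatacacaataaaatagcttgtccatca
The 88 ribosomal protein genes with the box had a median log2 fold change of -0.49 with 3 called down, and the 53 without it a median of -0.45 with 2 called down.

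Translation factors followed with a median of -0.47 and 2 of 37 genes down, or 4 to 5 under other scalings. The 2 were tef3, of elongation factor 3, from 91267 and 94141 to 38448 and 43506 normalized counts (log2 -1.18 ± 0.23, adjusted p = 0.00179), and tif51, of eIF5A, from 37105 and 37429 to 17415 and 17260 (log2 -1.10 ± 0.11, adjusted p = 4.66e-05). Among 18 purine and pyrimidine synthesis genes 6 fell and none rose. The IMP dehydrogenase gene gua1, at the branch to guanine nucleotides, went from 25464 and 25393 to 7291 and 8994 (log2 -1.65 ± 0.18), the dihydroorotate dehydrogenase gene ura3 from 11202 and 11459 to 2977 and 3891 (log2 -1.73 ± 0.14) and the purine synthesis gene ade1 from 9830 and 10251 to 3841 and 4247 (log2 -1.31 ± 0.12).

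Amino acid synthesis genes were mixed, with 8 of 69 down, 11.6% against 10.8% of all genes, and none up. Their median of 0.08 fell to -0.15 under another scaling. Other scalings called 13 or 14 down, and without the second untreated library 5 were up. The glutamine synthetase gene gln1 was at 6351 and 6716 normalized counts untreated and 737 and 741 with H2O2 (log2 -3.14 ± 0.11, adjusted p = 1.34e-07), the largest fall of the list. The homocysteine synthase gene met17 went from 1682 and 3588 to 431 and 769.9 (log2 -2.09 ± 0.42, adjusted p = 0.00226), with replicates that differed in both conditions, and met1, of sirohaem synthesis, from 3411 and 3864 to 951 and 850.0 (log2 -2.01 ± 0.11). In sterol synthesis 3 of 24 genes rose, 12.5% against 12.6% of all genes, and 1 fell. The sterol regulator gene sre1 went from 2386 and 2072 to 6345 and 5819 (log2 1.45 ± 0.11), erg32 and erg24 had log2 fold changes of 1.42 ± 0.17 and 1.13 ± 0.08, and erg1, of squalene monooxygenase, fell from 4043 and 4592 to 1745 and 1911 (log2 -1.24 ± 0.15).

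**Figure D4:**
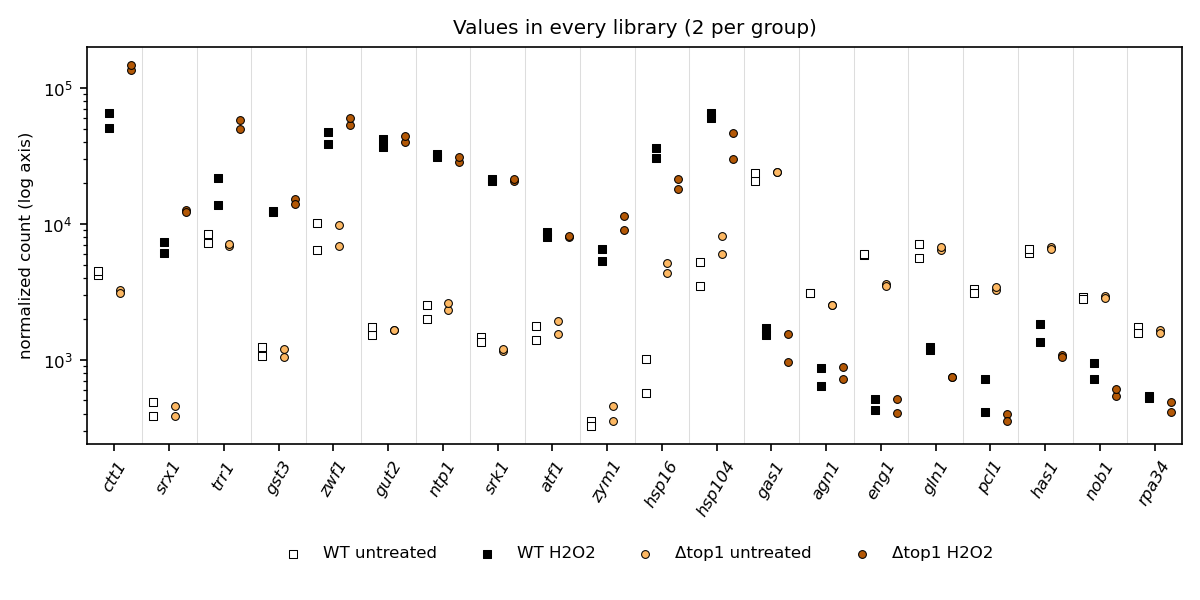
Normalized counts (vertical log axis) of 20 genes in each of the 8 libraries, with WT as squares and Δtop1 as circles and treated cells in the darker fill. In Δtop1 cells the treated circles lie clear of the untreated ones for ctt1 (3069 and 3243 against 134273 and 147064) and eng1 (3495 and 3585 against 403 and 514), and for hsp16 the treated circles lie below the treated squares.

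Falls were also found in genes of cell division. Of 20 cell cycle regulators 6 fell, 30% against 10.8% of all genes, and none rose. The gene slp1, an activator of the anaphase-promoting complex, went from 1743 and 1640 to 236 and 228 normalized counts (log2 -2.86 ± 0.10, adjusted p = 9.33e-08), the Cdc2-inhibiting kinase gene mik1 from 1080 and 979.6 to 314 and 397 (log2 -1.54 ± 0.19), and the M-to-G1 transcription factor gene mbx1 from 1365 and 1235 to 567 and 507 (log2 -1.27 ± 0.13). The Polo kinase gene plo1 and the mitotic inducer gene cdc25 were lower, with log2 fold changes of -0.85 ± 0.10 (adjusted p = 9.50e-05) and -0.77 ± 0.11 (adjusted p = 2.97e-04), and were not called.

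Septum and cell separation genes had 8 of 21 down and none up, with a median of -0.84. The gene eng1, of an endoglucanase that dissolves the primary septum, went from 3585 and 3495 to 514 and 403 normalized counts (log2 -2.96 ± 0.13, adjusted p = 4.29e-07), adg2 from 10717 and 9275 to 2003 and 1718 (log2 -2.43 ± 0.11), and agn1, the alpha-glucanase that opens the surrounding wall, from 2518 and 2503 to 875 and 723 (log2 -1.66 ± 0.15).

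In the list of cell wall enzymes 11 of 27 fell and 1 rose. With gas1 these included the 1,6-beta-glucosidase gene exg1, from 5786 and 5162 to 1095 and 965 normalized counts (log2 -2.41 ± 0.12, adjusted p = 7.69e-07), and the glucanosyltransferase gene gas5, from 5215 and 4527 to 932 and 954 (log2 -2.36 ± 0.09), whereas exg3, of a 1,3-beta-glucosidase, rose from 1086 and 1056 to 6435 and 7024 (log2 2.65 ± 0.09, adjusted p = 8.88e-08). Of 15 genes controlled by the G1/S factor MBF 3 were up and 3 down, 20% each against 12.6% and 10.8% of all genes. The genes of its own subunits Cdc10 and Res2 had log2 fold changes of 1.31 ± 0.09 and 1.52 ± 0.09, and cdt2, of a replication-coupled ubiquitin ligase, went from 981 and 958 to 3190 and 3457 (log2 1.78 ± 0.08). The replication licensing gene cdc18 was at 1073 and 1033 normalized counts untreated and 1013 and 958 with H2O2 (log2 -0.10 ± 0.09, adjusted p = 0.352). Among 10 core histone genes only hhf2 was called, at 6052 and 5501 untreated and 2365 and 2322 normalized counts with H2O2 (log2 -1.30 ± 0.16).

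Other lists held few calls. None of 39 mitochondrial ribosomal protein genes was called, with a median of 0.10 that became -0.13 under another scaling. Among 47 nuclear genes of the respiratory chain and ATP synthase 1 rose and 1 fell, nde1 (log2 1.10 ± 0.12) and atp23 (log2 -1.33 ± 0.11). Of the 47 genes 33 were higher at an adjusted p under 0.1, against 1802 of all 5019 genes. The call of nde1 was lost under the 3 other scalings, at 0.79 to 0.90. Of 13 citric acid cycle genes 2 rose, the malate dehydrogenase gene mdh1 from 3237 and 3535 to 14045 and 17618 normalized counts (log2 2.22 ± 0.14) and the citrate synthase gene cit1 (log2 1.50 ± 0.17), and sdh2 fell from 5295 and 5223 to 2501 and 2763 (adjusted p = 1.57e-04), a call lost at -0.93 without the first treated library. In nuclear transport 1 of 32 rose, the nucleoporin gene nup131 (log2 1.40 ± 0.10), and the importin genes kap123 and sal3 fell (log2 -1.32 ± 0.12 and -1.23 ± 0.12).

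Splicing had 1 of 58 called, cwf20 (log2 1.21 ± 0.17), a call lost at 0.98 when libraries were scaled to the same upper quartile, where 4 members were down. The genes of actin-related proteins arp2 and arp3 rose (log2 1.27 ± 0.09 and 1.05 ± 0.09), the second not without the second treated library, at 0.98, nor under any of the 3 other scalings, at 0.72 to 0.84. The actin gene act1 was at 44715 and 45982 normalized counts untreated and 50076 and 53159 with H2O2 (log2 0.19 ± 0.14, adjusted p = 0.284). Of 109 tested genes named for their rise in meiosis 18 were up, 16.5%, and 13 down, 11.9%, with a median of -0.06. Both percentages were near the 12.6% and 10.8% of all genes. The highest were mug190, from 725 and 826 to 26422 and 24619 (log2 5.04 ± 0.09), mug147, from 162 and 137 to 4854 and 4572 (log2 4.97 ± 0.13), and mug143, from 310.4 and 306 to 3957 and 4060 (log2 3.70 ± 0.12), and the lowest was mug146, from 29.5 and 19.6 to 5.49 and 2.23 (log2 -2.45 ± 0.57). Regulators of mating and meiosis, chosen after their values were seen, differed from each other. The master regulator gene ste11 went from 695 and 529 to 159 and 129 normalized counts (log2 -2.07, adjusted p = 0.000151) and mei2 from 255 and 267 to 52.7 and 33.4 (log2 -2.61, adjusted p = 8.68e-05). The meiotic transcription factor gene mei4 was at 128 and 159 untreated and 168 and 227 with H2O2 (log2 0.45, adjusted p = 0.131), so that it did not pass the test.

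Gene models of the responding genes were also described. A single exon was found in 64.8% of the genes called up and in 85.1% of those up at least 8-fold, against 57.7% of the genes called down and 51.2% of all genes tested. Median gene model lengths were 1538.5 bases for genes called up, 1245 for those up at least 8-fold, 1816 for genes called down and 1700 for all. By level per kilobase in untreated Δtop1 cells, 19.1% of the lowest quartile of genes were called up and 9.59% of the highest, and 10.3% and 14.9% were called down. These are descriptions of the genes, and read numbers differ between quartiles. The untreated levels that set the quartiles also enter the fold change, so a low untreated value favours a call up. No relation of level to response can be drawn from these shares.

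The response of Δtop1 cells was then set against that of WT. In WT 613 genes were up, 12.2%, and 569 were down, 11.3%, and 498 of the 630 genes called up in Δtop1 were called up in WT too. Of the 540 genes called down in Δtop1, 406 were called down in WT. The difference between the responses was tested as an interaction across all 8 libraries at an adjusted p under 0.1, and 107 genes responded more upwards in Δtop1, 2.13%, and 92 less, 1.83%. These numbers depended on single libraries and on the scaling. They were 228 and 54 with libraries scaled to the same total. Without the first treated Δtop1 library 12 and 7 genes passed the threshold, and without the second 145 and 229 passed it.

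Of the 107 genes with a higher response, the treated level was above WT in 105, and the untreated level was above WT in 53 and below it in 54. Of the 92 with a lower response, the treated level was below WT in all, and the untreated level was above WT in 70. The median differences were 0.94 and -0.75 on the log2 scale. The genes were picked by a difference that these levels enter, so the directions and sizes follow in part from the selection. Scavenging enzymes were among those that responded more, 4 of 27 with 1 to 5 as a library was left out, and none responded less. For ctt1 the log2 response was 5.48 in Δtop1 and 3.73 in WT, a difference of 1.75 (adjusted p = 0.013) that passed the threshold whichever library was left out. Its treated levels were 134273 and 147064 in Δtop1 and 50464 and 65380 in WT. The difference was 1.80 for trr1 (adjusted p = 0.0314) and 0.94 for srx1 (adjusted p = 0.0751), which passed in 4 and 3 of the 8 fits without a library.

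Detoxification genes responded more in 7 of 15 cases, and in 1 to 7 as a library was left out. The difference for caf5 was 2.54 (adjusted p = 0.0543, past the threshold in 3 of 8 fits), and for the alcohol dehydrogenase gene adh8, chosen after its values were seen, 1.93 (adjusted p = 0.013). Among the largest positive differences was that of SPAC186.02c, fitted at 5.20 with no read in untreated Δtop1 and at 3.29 to 8.27 under alternatives. It went from 0 and 0 to 234 and 137 normalized counts in Δtop1 and from 13.3 and 6.59 to 50.1 and 49.7 in WT. The transporter gene SPAC750.02c went from 31.4 and 19.6 to 162 and 151 in Δtop1 and from 14.9 and 17.9 to 7.62 and 13.7 in WT (difference 3.24, adjusted p = 0.0403). It rose in Δtop1 and was not called in WT.

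The gene urg2, of a putative uracil phosphoribosyltransferase, went from 6152 and 4444 to 21830 and 9644 normalized counts in Δtop1 and from 6777 and 2658 to 1627 and 549 in WT (difference 3.64, adjusted p = 0.0795). Its call as up in Δtop1 was lost without the first treated library, at a log2 fold change of 0.88, and its treated replicates differed by more than 2-fold.

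Chaperones stood on the other side, with 9 of 22 responding less in Δtop1, none more, and a median log2 response of 0.61 against 1.38 in WT, where 14 were called up. The small heat shock gene hsp16 went from 5133 and 4355 to 17938 and 21483 normalized counts in Δtop1 and from 1006 and 566 to 36157 and 30372 in WT. It was thus higher in Δtop1 before treatment and lower after it, with a difference of -3.40 (adjusted p = 0.00956) that passed whichever library was left out. The differences for ssa1 and hsp104 were -2.0 (adjusted p = 0.07) and -1.45 (adjusted p = 0.0995), past the threshold in 3 and 1 of 8 fits. Both genes also started higher in Δtop1 than in WT. Untreated means were 10290 against 4195 normalized counts for ssa1 and 7023 against 4359 for hsp104. Treated means were lower in Δtop1, at 85628 against 133438 and 38072 against 62445.5. Chosen after their values were seen, the co-chaperone genes psi1, sti1 and mas5 had differences of -1.16, -1.23 and -1.21. The number of chaperone genes with a lower response ranged from 1 to 16 as a library was left out.

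**Figure D5:**
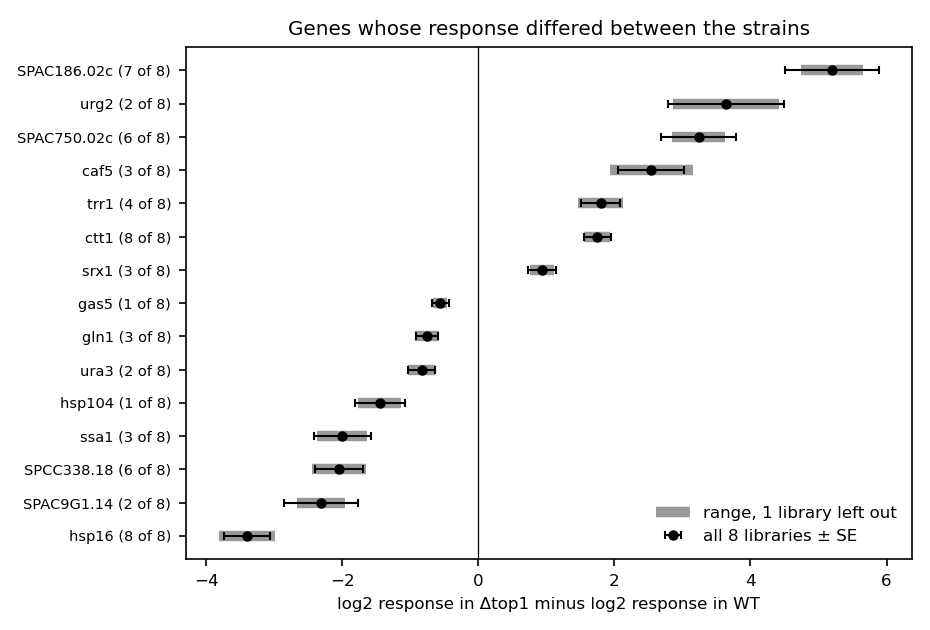
Difference between the log2 response to H2O2 in Δtop1 and in WT (horizontal axis) for 15 named genes past an adjusted p of 0.1, with thin bars for the standard error, a grey band for the range as each of the 8 libraries was left out, and in parentheses the number of those fits past the threshold. Values run from 5.20 for SPAC186.02c to -3.40 for hsp16, and ctt1 and hsp16 passed in all 8.

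Ribosomal protein genes responded less in 9 of 141 cases at the deposited scaling, with a median of -0.47 in Δtop1 and 0.03 in WT, and in 0 to 95 cases as a library was left out. With libraries scaled to the same total the medians were -0.67 in Δtop1 and -0.35 in WT. They were -0.70 and -0.27 with the same upper quartile, and -0.65 and -0.43 after quantile normalization. The share of reads on these genes fell in WT too, from 21.0% and 19.5% untreated to 15.9% and 16.2% treated. In treated Δtop1 cells it was 11.8% and 13.6%. Ribosome biogenesis genes responded less in 4 of 101, with medians of -1.42 and -1.07. The genes gln1 and gas5, called down in both strains, fell further in Δtop1 (differences -0.76, adjusted p = 0.0734, and -0.56, adjusted p = 0.0773), as did ura3, called down in Δtop1 but not in WT at -0.90 (-0.83, adjusted p = 0.08), each past the threshold in 1 to 3 of the 8 fits without a library. In 2 uncharacterized genes the rise was smaller in Δtop1. SPCC338.18 went from 232 and 178 to 1006 and 1043 normalized counts against a rise from 74.6 and 42.4 to 1093 and 1290 in WT, and SPAC9G1.14 from 14.3 and 8.96 to 42.8 and 57.9 against a rise from 8.29 and 12.2 to 287 and 176.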

How the data were processed

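Poly(A) RNA libraries (TruSeq Stranded, single reads) were made from 8 cultures, 2 per strain and condition. The authors deposited normalized counts from DESeq2, a signal per gene in which reads are divided by size factors of the library. The study's methods name Salmon against the ASM294v2 transcriptome, whereas the submitters' processing notes list STAR and HTSeq with ASM294v2, and which tool made these values is not settled. Whole reads were recovered for 5164 of 5165 genes in every library (within 0.01 of a whole number), which gave the depths printed in the report. Strand handling and the sharing of reads between paralogues are not given in the sources used here.

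Values were tested as log2(normalized count + 1) with limma 3.58.1 in R 4.3.3 (4 group means over all 8 libraries, trended variance, two-sided, Benjamini-Hochberg over 5019 genes with a mean of at least 10, 4 residual degrees of freedom). The p-values measure the spread between these samples, and an exact permutation test of 2 against 2 could not go below 0.333. Alternatives were the pseudocount, minimum, scaling, variance trend, replicate block, threshold, samples fitted, libraries left out, edgeR 4.0.16 and DESeq2 1.42.0 on recovered reads. The fits were tested on simulated data. The members and lists were chosen with earlier results of these data known. Of 452 list terms 8 matched no gene, and 124 genes were in the meiotic list, of which 109 were tested.

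Named genes are top1, the 8 largest rises and falls, preset members of each list, up to 3 called members of each list in its main direction and 1 in the other, and the 3 largest differences each way. Others are marked as chosen after their values were seen, except grx1 and pmp20, which are named as members with a CRE core, and the mating type genes mat1-Mc, map3 and map2. Of 5165 IDs 5129 matched RefSeq ASM294v3, and 5128 windows were read. In 766 of these the gene model is marked partial. An item that these rules would name is not reported here.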

Additional observations from a re-analysis of the deposited data

Results flagged for a closer look

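The results below were picked out because the response to H2O2 differed between Δtop1 and WT in the interaction test, at an adjusted p under 0.1. All values are differences in log2 response, Δtop1 minus WT, and the number of fits past the threshold is out of 8 in which 1 library was left out. No explanation of the differences was tested.

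Responses further upwards in Δtop1 were seen for SPAC186.02c (5.20, 7 of 8), urg2 (3.64, 2 of 8), SPAC750.02c (3.24, 6 of 8), caf5 (2.54, 3 of 8), trr1 (1.80, 4 of 8), ctt1 (1.75, 8 of 8) and srx1 (0.94, 3 of 8). Deeper falls in Δtop1 were seen for gas5 (-0.56, 1 of 8), gln1 (-0.76, 3 of 8) and ura3 (-0.83, 2 of 8). Smaller rises in Δtop1 were seen for hsp104 (-1.45, 1 of 8), ssa1 (-2.0, 3 of 8), SPCC338.18 (-2.05, 6 of 8), SPAC9G1.14 (-2.31, 2 of 8) and hsp16 (-3.40, 8 of 8). Over 19 alternatives the adjusted p of ctt1 ranged from 2.42e-15 to 0.0791, and the highest for hsp16 was 0.0514. SPAC186.02c had no read in untreated Δtop1, so its fitted difference depends on the pseudocount and ranged from 3.29 to 8.27. Each of these genes apart from ctt1 and hsp16 lost the call without the first treated Δtop1 library.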

How the results depend on the processing

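The numbers of genes up and down in Δtop1, 630 and 540, stayed within 1.5 times under all alternatives but the test against a 2-fold change (limma's treat), which called 413 and 271. Leaving out a library gave 623 to 642 up and 507 to 561 down, edgeR 621 and 549, and DESeq2 629 and 537. The numbers of genes with a higher and a lower response, 107 and 92, were less stable. They became 228 and 54 with libraries scaled to the same total, 68 and 62 after quantile normalization, 83 and 43 without the variance trend, 150 and 222 with DESeq2, 30 and 15 at an adjusted p under 0.05, and ranged from 12 to 145 and from 6 to 229 as 1 library was left out. The cause was not tested. Without the first untreated Δtop1 library they were 19 and 6, without the second 21 and 12, and without the WT untreated libraries 28 and 15, and 39 and 27. Replicate numbers are shared between groups, but nothing says that they mark a shared culture day. Libraries with the same number deviated from their group means with a correlation of 0.406 in the Δtop1 groups and at 0.066 to 0.617 over all 6 pairs of groups. With the replicate number as a block 635 genes were up, 541 down, 431 higher and 448 lower.

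No named gene reversed. Of the values of named genes under alternatives, 2397 kept their side of the threshold, 55 lost the call and 10 gained it, and of the differences in response 229 kept it and 91 lost it. Calls of erg24, nde1, cwf20, pre3, rpt6, top3, arp3 and urg2 were lost under another scaling, and fib1, nuc1 and plo1 gained one. In the lists 1168 counts stayed within 1.5 times and 92 moved. Called genes near the 2-fold limit, 73 within 0.1 above it, limit how exact the counts are, and 4 called genes had at most 3 reads in every library of a group.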

Other observations

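The words of the gene descriptions, chosen after their values were seen, also give groups beyond the 35 lists, which hold some of the same genes. Over all genes tested 12.6% were up and 10.8% down. Of 176 tested genes described as a dehydrogenase, reductase or oxidoreductase 65 were up, 36.9%, and 12 down, 6.82%. Genes of transporters, permeases and symporters were as often up as down, 38 each of 194, 19.6%. Of 37 RNA helicase genes none was up and 16 were down, 43.2%, and of 31 tRNA modification genes none was up and 12 were down, 38.7%. Among 70 protease and peptidase genes 11 were up, 15.7%, near the share over all genes, and 1 was down. Among 92 genes of DNA-binding transcription factors 14 were up, 15.2%, and 8 down, 8.70%, near the shares over all genes. Uncharacterized proteins were up in 78 of 316 cases, 24.7%, and down in 39, 12.3%. Genes of aminoacyl-tRNA ligases moved little, with 1 of 32 up and 2 down.

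Neighbouring genes were both up in 42 of 1320 divergent pairs (3.18%), 26 of 1352 convergent pairs (1.92%) and 58 of 2219 tandem pairs (2.61%). They moved in opposite directions in 1.74%, 3.33% and 2.21% of these pairs. There were 7 runs of at least 4 adjacent genes called up. Chosen after their values were seen, 3 of them were the galactose genes gal7, gal10 and gal1 with tgd1 and SPBPB2B2.14c, the run ght3, shu1, str3 and hhy1, which holds a hexose transporter gene and genes of haem and siderophore uptake, and SPAC186.08c, pdc102, SPAC750.01 and SPAC750.02c on chromosome I. Neighbours can share promoters and, where counting ignores strand, reads.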
